A study of Mus musculus with 8 samples.

Results

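The genes described here encode 10 transcription factors that drive or accompany the transition of cells to a mesenchymal state: Snai1, Snai2 and Snai3 of the Snail family, Twist1 and Twist2, Zeb1 and Zeb2, Prrx1 and Prrx2, and Tcf4. They were found by their symbols among the 55471 genes of the count table, each in 1 row. RNA-seq was performed on SV-LECs, an SV40-immortalized mouse cell line isolated from mesenteric tissue and labelled lymphatic endothelial. Cells were left untreated (4 libraries) or were exposed to 10 ng/ml TGFβ1 for 72 h (4 libraries), and the culture medium and the immortalizing genotype were common to both groups. All 8 libraries came from 1 cell line, and the study's methods call the 4 samples of a group technical replicates, so each p-value measures only the spread between such samples.

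Transcription factors of this kind are known as the switch of the epithelial to mesenchymal transition, in which cells lose junctions and gain motility, and of its endothelial counterpart. Snail and Zeb proteins are zinc finger repressors that bind short DNA motifs called E-boxes in the promoters of junction genes. Twist proteins and Tcf4 are basic helix-loop-helix factors that bind E-boxes as pairs, and Prrx proteins are homeodomain factors of embryonic mesenchyme. TGFβ1 acts through receptor kinases and SMAD proteins, which enter the nucleus and bind DNA beside other factors.

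The libraries held 19182616 to 26077972 gene counts in the untreated group and 18952504 to 26386941 after TGFβ1. Levels are given as counts per 1000000 gene counts (CPM) scaled by TMM, a factor that corrects for the make-up of each library, and a count of 3 corresponded to 0.113 to 0.162 CPM. Several endothelial and lymphatic marker genes were absent or close to it. Tie1 and Ccl21a had no count in any library. Prox1 and Cdh5 reached at most 2 counts in a library, Lyve1 at most 3 and Pecam1 at most 5. Other endothelial and lymphatic markers were present in untreated cells. Pdpn stood at 342 ± 19.5 CPM, Nrp2 at 66.4 ± 1.49 CPM and Flt4 at 21.6 ± 1.23 CPM (SD, n = 4). Of fibroblast markers, Dcn stood at 312 ± 11.7, Pdgfra at 160 ± 10.5 and Thy1 at 89.2 ± 2.87 CPM in untreated cells. The fibroblast and mural markers Lum, Rgs5, Kcnj8 and Abcc9 did not exceed 9 counts in a library. The mesothelial genes Upk3b and Msln stood at 537 ± 45.0 and 344 ± 28.3 CPM in untreated cells, and the leukocyte gene Ptprc did not exceed 1 count. These measurements go against part of the label, and the cells are called SV-LECs below.

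To give the sequence context of the genes that responded, the promoter windows of 3 of them are shown. From the RefSeq promoter table (GRCm38.p6), 9 windows of 6 of the 10 genes were used. Each has 300 bases and runs from 250 bases before to 50 bases after a gene start. No window of Snai2, Snai3, Zeb1 or Tcf4 was searched, so Snai3 and Zeb1, which rose, were not part of the motif comparison. Both strands were searched for the E-box CANNTG, for its form CAGGTG or CACCTG that Snail and Zeb proteins prefer, and for the SMAD element CAGAC or GTCTG. A further GC-rich SMAD element was searched in the same way, spelled GGCGC or GCGCC. The form preferred by Snail and Zeb is one case of CANNTG, so a match to it counts under both. Capitals mark matches to CANNTG and to the first SMAD element, and matches to the GC-rich element are not marked. Snai1 is shown for its E-box and its rise, and Twist1 and Prrx1 for their matches to the first SMAD element and their fall, at chr2:167537945-167538244 (plus strand), chr12:33957421-33957720 (plus strand) and chr1:163313601-163313900 (minus strand).
Snai1: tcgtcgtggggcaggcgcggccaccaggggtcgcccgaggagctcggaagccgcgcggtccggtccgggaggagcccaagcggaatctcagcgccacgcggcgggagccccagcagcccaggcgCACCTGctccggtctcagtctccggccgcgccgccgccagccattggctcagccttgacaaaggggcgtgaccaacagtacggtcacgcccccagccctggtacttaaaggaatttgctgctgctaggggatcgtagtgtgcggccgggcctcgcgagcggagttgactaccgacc
Twist1: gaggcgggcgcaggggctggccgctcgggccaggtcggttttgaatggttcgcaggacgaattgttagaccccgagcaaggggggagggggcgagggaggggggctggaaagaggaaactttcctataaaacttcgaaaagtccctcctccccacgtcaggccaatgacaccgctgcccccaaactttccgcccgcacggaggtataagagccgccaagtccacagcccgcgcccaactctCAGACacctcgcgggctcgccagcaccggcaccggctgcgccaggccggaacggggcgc
Prrx1: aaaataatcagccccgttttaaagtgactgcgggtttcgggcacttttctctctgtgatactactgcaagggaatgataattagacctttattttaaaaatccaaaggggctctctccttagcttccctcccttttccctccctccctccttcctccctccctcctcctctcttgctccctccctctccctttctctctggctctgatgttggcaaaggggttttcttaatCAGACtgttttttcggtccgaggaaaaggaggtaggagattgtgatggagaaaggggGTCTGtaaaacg
The Snai1 window held 1 E-box, CACCTG, which begins 126 bases before the gene start, no match to the first SMAD element, and 4 matches to the GC-rich SMAD element. No other window of the 6 genes (Prrx1, Prrx2, Snai1, Twist1, Twist2 and Zeb2) held a match to CANNTG. Of 32851 promoters of the same length, 20.2% held CAGGTG or CACCTG and 72.3% held CANNTG. The first SMAD element occurred 2 times in the Prrx1 window and 1 time in the Twist1 window, against 49.6% of all promoters with at least 1 match. The GC-rich element occurred 4 times in the Snai1 and in the Twist1 window, 3 times in 1 of the Zeb2 windows, 2 times in that of Twist2, 1 time in that of Prrx2 and not in that of Prrx1, and 36.9% of all promoters held at least 1. Snai1, the only gene of these 6 that rose, held the GC-rich form alone, but so did Twist2 and Prrx2, which fell. Of the other genes that fell, Prrx1 held the first form alone and Twist1 held both. These forms therefore did not set the gene that rose apart. The Prrx1 window had a GC content of 47.7%, below the median of 52.7% over all promoters. Windows of Twist1 (66.0%), Twist2 (64.7%) and Prrx2 (70.3%) lay above it, as did that of Snai1. Those of Zeb2 had 60.7%, 52.7%, 52.7% and 49.3%. A match is a description of letters and is not a measured binding site.

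To determine how the 10 genes responded, their counts were compared between TGFβ1-treated and untreated SV-LECs with the edgeR likelihood ratio test on all 13818 genes that passed a filter on low counts. All 10 genes passed the filter, each in all 8 libraries. Of these, 9 changed at an FDR under 0.05, 3 upwards (Snai1, Snai3 and Zeb1) and 6 downwards (Snai2, Twist1, Twist2, Prrx1, Prrx2 and Tcf4). Of all genes tested, 75.6% passed the same threshold, 37.6% upwards and 38.0% downwards, so a call by itself did not set these genes apart. The groups did not overlap in CPM for 8 of the 10 genes, all but Zeb2 and Prrx2, against 69.8% of all genes tested. The median log2 fold change of the 10 genes was -0.24, and that of all genes tested was -0.006. In bulk RNA, fewer cells of a kind and less RNA per cell cannot be told apart.

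**Figure D1:**
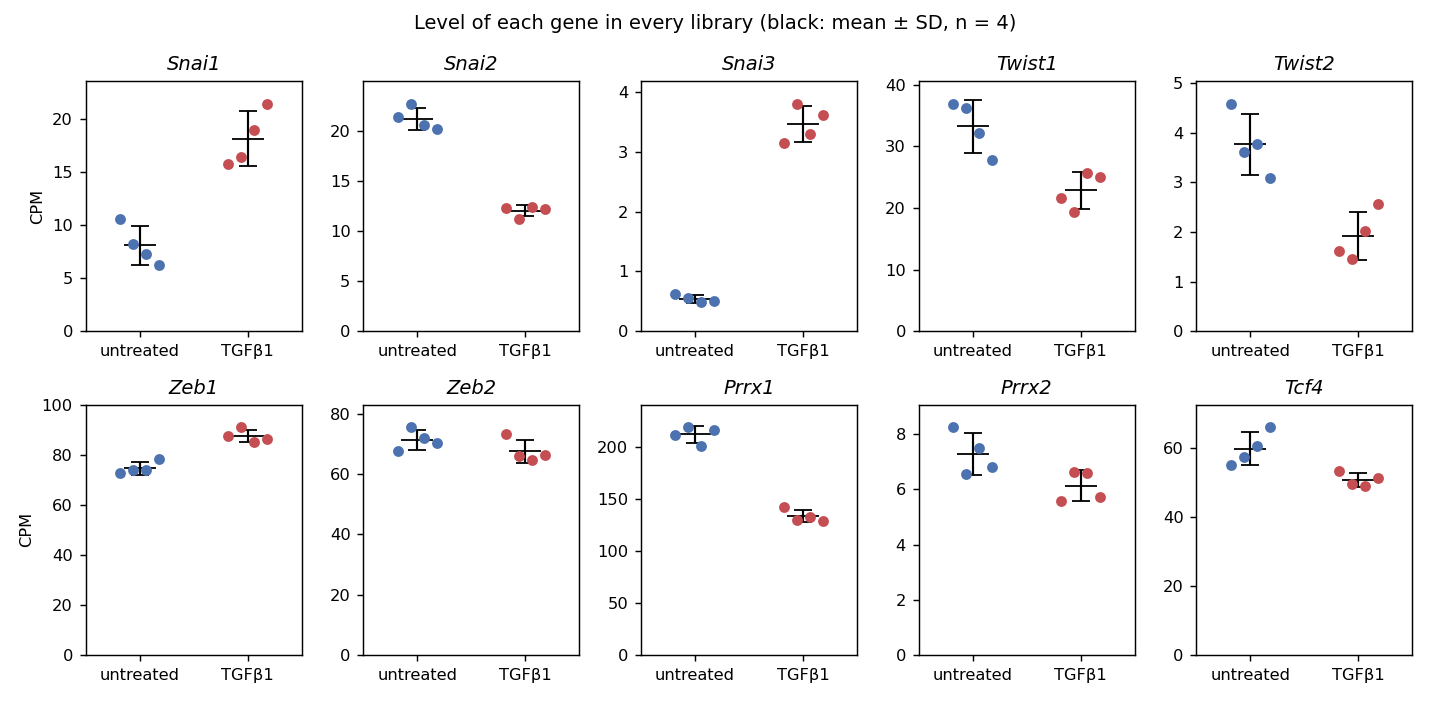
Level of each of the 10 genes in CPM, scaled by TMM, in every library of the untreated group (blue points) and the TGFβ1 group (red points), with the mean and SD of each group in black (n = 4). The groups are separate for 8 genes and overlap for Zeb2 and Prrx2, and Snai3 moves from 0.480 to 0.626 CPM in untreated cells to 3.14 to 3.80 CPM after TGFβ1.

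The Snail family, zinc finger repressors that differ mostly in their N-terminal regions, split under TGFβ1, with Snai1 and Snai3 higher and Snai2 lower. Snai1, the early-response member of the family (chr2:167538195-167542814, plus strand, GENCODE M21), measured 10.6, 8.19, 7.29 and 6.19 CPM in untreated replicates 1 to 4 and 15.7, 16.4, 18.9 and 21.4 CPM in TGFβ1 replicates 1 to 4. Every treated library was above every untreated one, and the smallest gap between the groups was 5.13 CPM. Snai1 rose 2.25-fold (log2 fold change 1.17, SE 0.144, edgeR FDR = 2.12e-15). Its coefficient of variation over libraries, 23.0% in untreated cells and 14.5% after TGFβ1, was larger than that of Snai2, at 5.19% and 4.51%.

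Snai2, which encodes Slug (chr16:14705852-14709385, plus strand), measured 21.4, 22.7, 20.6 and 20.2 CPM in the untreated libraries and 12.3, 11.2, 12.4 and 12.2 CPM in the treated ones. All treated libraries lay below all untreated libraries. The level fell by 43.6%, a log2 fold change of -0.82 (SE 0.075, edgeR FDR = 7.34e-28). Snai3, the remaining paralog (chr8:122454208-122460733, minus strand), measured 0.626, 0.563, 0.480 and 0.507 CPM before and 3.14, 3.80, 3.30 and 3.61 CPM after TGFβ1. It had the lowest level of the 10 genes in untreated cells, where it rested on 10 to 15 counts per library, and on 58 to 93 counts after TGFβ1. Snai3 rose 6.33-fold (log2 fold change 2.66, SE 0.228, edgeR FDR = 4.15e-43), and no other of the 10 genes had a larger fold change.

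These opposite changes altered which Snail gene supplied most of the family's reads. In untreated cells Snai2 made up 71.4 ± 3.99% of reads of the 3 genes, Snai1 26.8 ± 3.95% and Snai3 1.82 ± 0.103% (SD, n = 4). After TGFβ1 the shares were 35.9 ± 2.76% for Snai2, 53.7 ± 3.10% for Snai1 and 10.4 ± 1.19% for Snai3. The 3 transcripts have similar exon lengths (1621, 2021 and 1628 bases), and per kilobase of exon Snai1 made up 31.2 ± 4.29% before and 57.8 ± 3.03% after. The Snai1 to Snai2 read ratio within a library does not depend on the scaling between libraries. It was 0.493, 0.361, 0.354 and 0.307 in untreated libraries and 1.28, 1.46, 1.53 and 1.76 in treated ones, so Snai2 led in every untreated library and Snai1 in every treated one. The ratio was 4.01-fold higher after TGFβ1 (log2 difference 2.00, exact two-sided permutation p = 0.0286, the smallest that 4 against 4 libraries allow; Benjamini-Hochberg adjusted p = 0.0343 over 6 ratios). Snai3 also gained on both relatives, comparisons added after the values were seen. Its ratio to Snai1 went from a range of 0.0615 to 0.0857 to one of 0.169 to 0.233, and its ratio to Snai2 from 0.0243 to 0.0303 to 0.257 to 0.341 (exact permutation p = 0.0286 and adjusted p = 0.0343 for each).

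**Figure D2:**
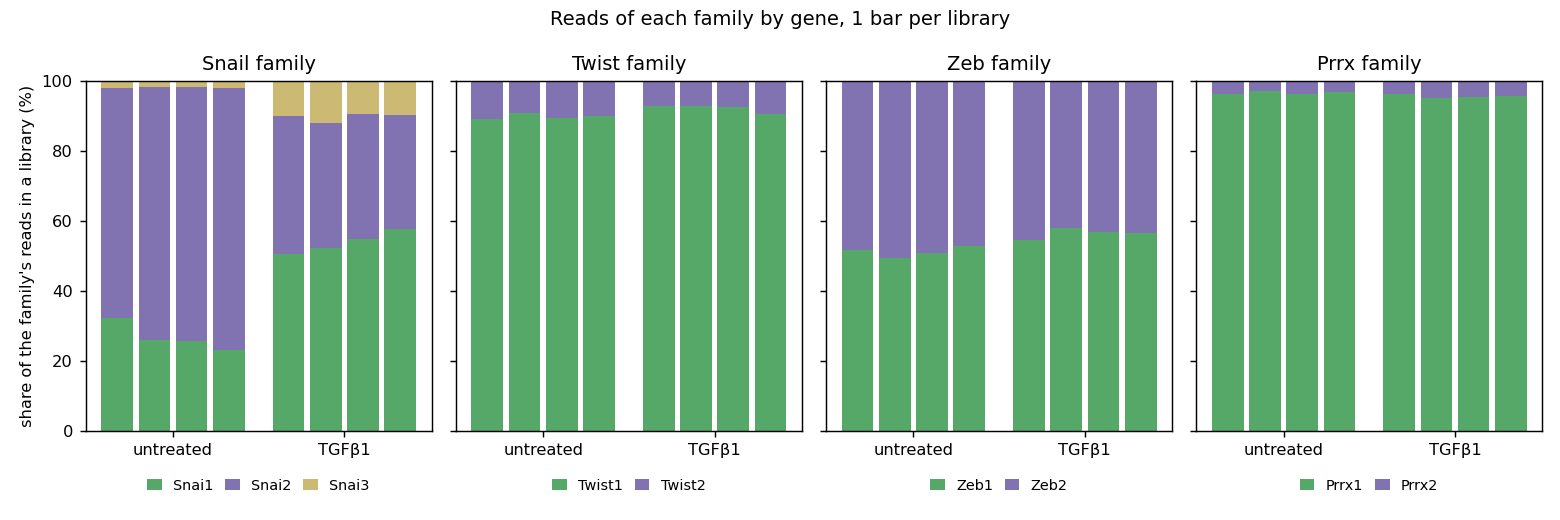
Share of the reads of each gene family, in percent, taken by its members in every library, with 1 bar per library, untreated on the left and TGFβ1 on the right of each panel. Snai1 takes 23.0% to 32.3% of Snail reads in untreated libraries and 50.4% to 57.6% in treated ones, while the split within the Twist, Zeb and Prrx families moves far less.

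Both Twist genes, which encode basic helix-loop-helix factors of mesoderm and of the mesenchymal program, were lower after TGFβ1. Twist1 (chr12:33957671-33959829, plus strand) measured 36.9, 36.2, 32.1 and 27.7 CPM in untreated and 21.6, 19.3, 25.7 and 25.0 CPM in treated libraries. The groups were separate by 2.00 CPM. Twist1 fell by 31.0% (log2 fold change -0.54, SE 0.103, edgeR FDR = 3.99e-07). Twist2 (chr1:91801461-91848028, plus strand) was scarcer, with 4.58, 3.61, 3.76 and 3.09 CPM before and 1.62, 1.46, 2.02 and 2.56 CPM after TGFβ1. Its treated libraries were all below the untreated ones, but varied more than those of any other of the 10 genes, with a coefficient of variation of 25.6%. Twist2 fell by 48.2% (log2 fold change -0.95, SE 0.184, edgeR FDR = 3.72e-07).

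Twist2 shares 1477 bases, 46.5% of its exon bases, with the antisense gene Gm29100, and the strand setting used in counting was not given in the sources used here. Gm29100 had 3 to 14 counts per library, against 30 to 96 for Twist2, and was not tested. The Twist1 to Twist2 read ratio was 8.02 to 9.99 in untreated libraries and 9.71 to 13.1 after TGFβ1. These ranges overlap, and the log2 difference of 0.45 did not pass the test (exact two-sided permutation p = 0.0571, adjusted p = 0.0571 over 6 ratios).

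The Zeb genes, large zinc finger repressors of E-cadherin, moved little. Zeb1 (chr18:5591860-5775467, plus strand) measured 72.8, 73.9, 73.9 and 78.4 CPM in untreated and 87.6, 91.1, 85.4 and 86.6 CPM in treated libraries. The groups were separate by 6.97 CPM, and libraries within a group differed little, with coefficients of variation of 3.35% and 2.82%. Zeb1 rose 1.17-fold (log2 fold change 0.23, SE 0.0458, edgeR FDR = 9.72e-07). Zeb2 (chr2:44983632-45117395, minus strand) measured 67.6, 75.5, 71.9 and 70.3 CPM before and 73.3, 65.9, 64.8 and 66.3 CPM after TGFβ1, and the ranges overlap. Its log2 fold change was -0.08 (95% interval -0.19 to 0.03, edgeR FDR = 0.174). Without TGFβ1 replicate 1, the highest treated library, the log2 fold change was -0.12 and passed the threshold (edgeR FDR = 0.0363). Scaling by total counts alone gave -0.15 (edgeR FDR = 0.00985), with the median of all genes at -0.07.

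In untreated cells the Zeb1 to Zeb2 read ratio was 0.979 to 1.12, and after TGFβ1 it was 1.19 to 1.38. The ratio rose 1.24-fold (log2 difference 0.31, exact permutation p = 0.0286, adjusted p = 0.0343). Zeb2os, an antisense gene that covers 3.27% of the Zeb2 exon bases, measured 1.21 ± 0.200 CPM before and 1.37 ± 0.192 CPM after (SD, n = 4, edgeR FDR = 0.475). Gm10125, on the strand opposite to Zeb1, covers 1.93% of its exon bases and had 0 to 10 counts per library. The further annotated genes that overlap one of the 10 genes (Gm20471, Gm26523, Gm37644, Gm20388, Gm24845, Gm29101, Gm16147, Gm22709, Gm27404, Gm27645, Gm27761 and Mir5129) share at most 5 exon bases with it, and those in the count table had at most 1 count in a library.

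Prrx1, a homeobox gene of limb and craniofacial mesenchyme that also induces a mesenchymal state in epithelial cells (chr1:163245119-163313710, minus strand), had the most reads of the 10 genes. It measured 212, 219, 201 and 217 CPM in untreated libraries and 142, 130, 133 and 129 CPM after TGFβ1. The groups were separate by 58.2 CPM, the widest gap in CPM among the 10 genes. Prrx1 fell by 37.2% (log2 fold change -0.67, SE 0.047, edgeR FDR = 4.62e-45). With it, the summed level of all 10 genes went from 492 ± 10.6 to 404 ± 9.26 CPM (SD, n = 4).

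Prrx2, its paralog (chr2:30834972-30881251, plus strand), measured 8.24, 6.54, 7.51 and 6.80 CPM before and 5.57, 6.62, 6.59 and 5.71 CPM after. The lowest untreated library lay within the treated range. Prrx2 fell by 15.6% (log2 fold change -0.25, SE 0.114, edgeR FDR = 0.0422), the weakest of the 9 calls. The call was lost without untreated replicate 1 (log2 fold change -0.19, edgeR FDR = 0.14), untreated replicate 3 (-0.23, FDR = 0.0933), TGFβ1 replicate 1 (-0.21, FDR = 0.119) or TGFβ1 replicate 4 (-0.21, FDR = 0.118), and with DESeq2 (-0.24, adjusted p = 0.0795). The Prrx1 to Prrx2 read ratio went from 25.6 to 33.4 in untreated libraries to 19.5 to 25.5 in treated ones (log2 difference -0.42, exact permutation p = 0.0286, adjusted p = 0.0343).

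Tcf4, an E protein that pairs with tissue-specific basic helix-loop-helix factors such as Twist (chr18:69343356-69689079, plus strand), measured 54.9, 57.4, 60.6 and 65.9 CPM in untreated and 53.4, 49.5, 49.0 and 51.2 CPM in treated libraries. The groups were separate by 1.48 CPM. Tcf4 fell by 14.9% (log2 fold change -0.23, SE 0.0617, edgeR FDR = 0.000283). Within the untreated group, replicate 1 held the highest level of Snai1, Twist1, Twist2 and Prrx2 and the lowest of Tcf4, and replicate 4 the lowest of Snai1, Twist1 and Twist2 and the highest of Tcf4. The part of this library difference in the results was not tested beyond leaving out each library in turn.

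**Figure D3:**
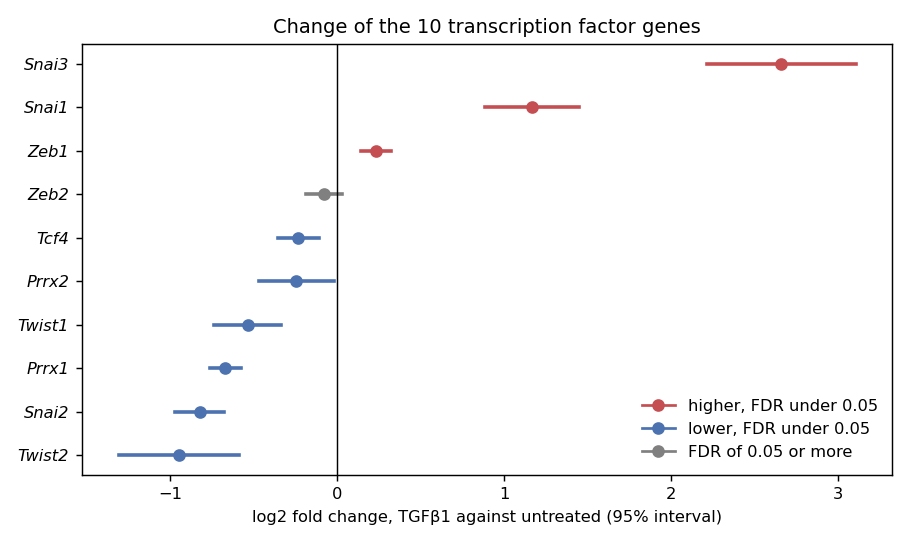
Log2 fold change of the 10 genes, TGFβ1 against untreated, with its 95% interval from the edgeR fit (4 libraries per group), red and blue for calls at an FDR under 0.05 and grey for Zeb2. Snai3 (2.66) and Snai1 (1.17) exceed a log2 fold change of 1, and the 6 genes that fell lie between -0.95 and -0.23.

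Levels of different genes were compared per kilobase of exon, with every annotated exon of a gene counted once. In untreated cells the order was Twist1 (20.4 ± 2.61 CPM per kilobase), Prrx1 (19.2 ± 0.749), Snai2 (10.5 ± 0.545), Zeb1 (7.28 ± 0.244), Snai1 (4.97 ± 1.14), Prrx2 (3.71 ± 0.391), Zeb2 (3.58 ± 0.166), Tcf4 (2.18 ± 0.174), Twist2 (1.18 ± 0.194) and Snai3 (0.334 ± 0.0398). The libraries of 3 neighbouring pairs overlapped, Twist1 with Prrx1, Snai1 with Prrx2 and Prrx2 with Zeb2. After TGFβ1, Snai1 followed Twist1 and Prrx1 at 11.2 ± 1.61 CPM per kilobase, and its range overlapped that of Prrx1 (12.1 ± 0.571), which in turn overlapped that of Twist1 (14.1 ± 1.85). Zeb1 (8.54 ± 0.241) was then above Snai2 (5.94 ± 0.268), followed by Zeb2 (3.39 ± 0.196) and Prrx2 (3.12 ± 0.287), which overlapped, by Snai3 (2.13 ± 0.183) and Tcf4 (1.85 ± 0.0736), which overlapped, and by Twist2 (0.604 ± 0.154).

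Read against all genes tested, Snai1 lay above 44.1% of them per kilobase before TGFβ1 and above 65.3% after. Snai3 went from 8.92% to 27.7%, while Twist1 went from 79.6% to 71.1% and Snai2 from 63.5% to 48.6%. The order depends on the length used for genes with many transcripts. Tcf4 has 62 annotated transcripts and 27382 exon bases in all, and Zeb2 has 29 transcripts and 19942 bases. With the median length of the coding transcripts, an alternative added after the values were seen, Prrx1 led in both groups (42.6 and 26.7 CPM per kilobase), Tcf4 was second (25.4 and 21.6), and Snai1 moved from rank 8 to rank 6.

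**Figure D4:**
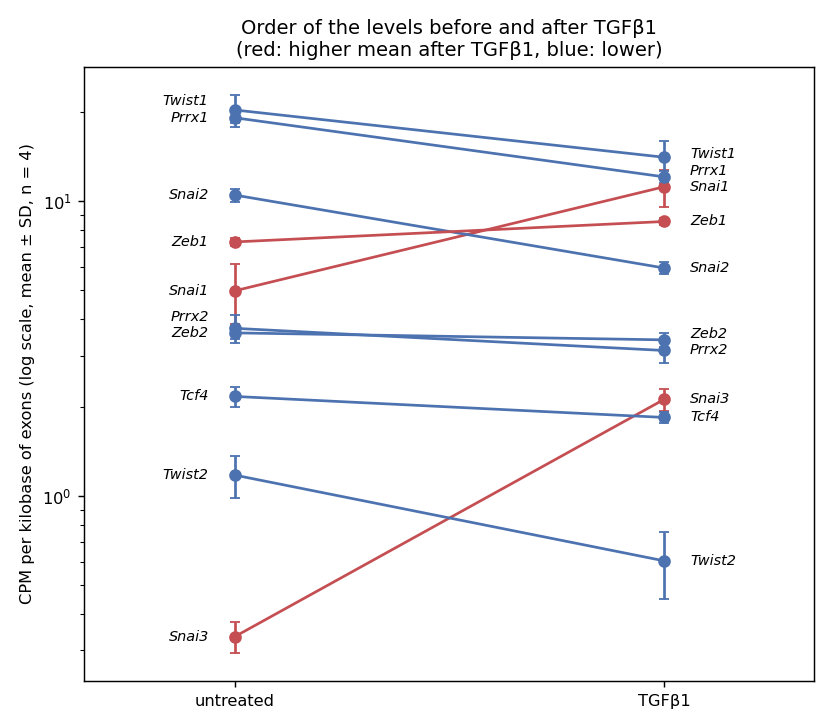
Mean level of the 10 genes in CPM per kilobase of exon (log axis, all exons counted once) in untreated and TGFβ1-treated SV-LECs, with the SD of 4 libraries as bars, red for a higher and blue for a lower mean after TGFβ1. Snai1 climbs from 4.97 to 11.2 and crosses Snai2, which drops from 10.5 to 5.94, and Snai3 passes Twist2.

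To place these changes among related genes, lists of partners, regulators and targets were counted in the same fit. Beside each count stand the shares over all genes tested, 37.6% higher and 38.0% lower, and no difference between a list and all genes was tested. Of 15 relatives of the Snail, Twist and Prrx genes, 7 were tested, 1 rose and 4 fell, with a median log2 fold change of -0.40, or -0.27 without Tcf21. Hand2, a basic helix-loop-helix factor of the Twist group, rose from 5.82 ± 0.909 to 15.6 ± 1.73 CPM (SD, n = 4, log2 fold change 1.42). Shox2, a homeobox relative of Prrx, fell (log2 fold change -0.76), as did Tcf21 (-2.36), another basic helix-loop-helix factor of mesenchyme. Tcf21 went from 1.22 ± 0.138 to 0.239 ± 0.0871 CPM and passed the filter through the untreated libraries alone. The filter thus fixed the direction of its fall, and of the other 6 tested relatives 1 rose and 3 fell. Tcf3 (-0.41) and Tcf12 (-0.13), E proteins like Tcf4, also fell, so the 3 E protein genes were all lower after TGFβ1. The changes of Tcf12 and Tcf4 were smaller than the median absolute log2 fold change of all genes tested, 0.386. Scx measured 4.24 ± 0.530 CPM before and 3.17 ± 1.04 CPM after (edgeR FDR = 0.0504), and Id4 1.61 ± 0.263 and 1.65 ± 0.138 CPM (edgeR FDR = 0.812).

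Of 24 further transcription factors linked to the mesenchymal state, 17 were tested, of which 9 rose and 8 fell (median log2 fold change 0.29). By edgeR's quasi-likelihood test or by DESeq2, 9 rose and 7 fell. Foxm1, a factor of cell division, fell from 190 ± 3.58 to 53.9 ± 1.67 CPM (log2 fold change -1.82). Hmga2, a chromatin protein known to act upstream of Snai1, rose from 5.44 ± 0.722 to 29.6 ± 1.76 CPM (2.44), and Foxc2, a forkhead factor of lymphatic vessels, from 4.88 ± 0.439 to 17.1 ± 2.52 CPM (1.81). Of 11 factors that maintain the epithelial state, 6 were tested, of which 2 rose and 4 fell (median -0.30). Grhl3, a Grainyhead factor, rose from 0.603 ± 0.237 to 9.24 ± 0.761 CPM (3.96), and Esrp2, an epithelial splicing regulator, from 15.8 ± 0.589 to 34.1 ± 1.33 CPM (1.11), while Klf4 fell from 145 ± 9.20 to 59.6 ± 4.43 CPM (-1.28). Grhl3 needed the TGFβ1 libraries to pass the filter, since its lowest untreated library held 8 counts and lay under it. The other rise of this list was that of Esrp2 alone, beside the 4 falls.

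Snail and Zeb recruit co-repressors to silence their targets. All 21 co-repressor genes of the list were tested, 14 fell (66.7%, against 38.0% of all genes tested), 4 rose and 3 did not pass (median log2 fold change -0.23, against -0.006). Suz12, a Polycomb subunit, fell from 273 ± 6.30 to 159 ± 4.79 CPM (-0.78), and Suv39h1, a histone methyltransferase, from 84.6 ± 3.42 to 53.3 ± 2.71 CPM (-0.67), whereas Eed, another Polycomb subunit, rose from 59.2 ± 1.60 to 84.6 ± 1.90 CPM (0.52). Of 19 genes that act on the stability of Snail or Twist proteins, 10 fell, 5 rose and 4 did not pass (median -0.22). Mdm2, a ubiquitin ligase and p53 target, rose from 306 ± 30.0 to 1430 ± 61.6 CPM (2.22), and Fbxw7, a substrate receptor of a ubiquitin ligase, from 23.4 ± 1.16 to 54.3 ± 2.81 CPM (1.22). Ctdsp2, a phosphatase, fell from 187 ± 3.91 to 99.2 ± 1.80 CPM (-0.91). RNA levels give no measure of the proteins themselves.

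Among 20 junction and epithelial genes that Snail, Zeb or Twist lower through E-boxes in epithelial cells, 13 were tested, of which 8 rose and 3 fell (median log2 fold change 0.74, over genes that include 4 that passed the filter through 1 group alone). St14, a membrane protease, rose from 2.91 ± 0.541 to 43.1 ± 2.13 CPM (3.88), and Jup, which encodes plakoglobin, from 77.1 ± 5.64 to 134 ± 8.10 CPM (0.80). Cgn, a tight junction gene, fell from 36.0 ± 1.46 to 21.7 ± 1.48 CPM (-0.72). Most of this list was low in SV-LECs: 7 genes were left out by the filter. Of the 8 rises, 3 (Dsp, Krt8 and Krt18) were in genes whose untreated mean lay under the filter. These genes passed it through the TGFβ1 libraries alone, so the filter fixed their direction. Muc1, which did not pass the test, passed the filter through the untreated libraries. The other 9 tested genes had a median of 0.38, with 5 higher and 3 lower. Of 26 mesenchymal genes, 25 were tested, of which 19 rose and 4 fell (median 0.80, or 0.77 without Mmp9, which passed the filter through the TGFβ1 libraries alone). Acta2, smooth muscle actin, rose from 264 ± 9.92 to 981 ± 38.4 CPM (1.89), and Mmp14, a membrane collagenase, from 731 ± 19.2 to 1650 ± 36.7 CPM (1.17). The 4 that fell were the collagen genes Col3a1 (-0.92) and Col5a2 (-0.31), the calcium-binding S100a4 (-1.16) and the matrix protein Sparc (-0.26).

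Markers of cell types moved in the same comparison. Of 22 endothelial and lymphatic markers, 9 were tested, 5 rose and 3 fell (median log2 fold change 0.39), with Flt1 (1.24), Kdr (0.93) and Nr2f2 (-0.95) the clearest by likelihood ratio. Their summed level was 496 to 533 CPM in untreated and 520 to 532 CPM in treated libraries. Most of it came from Pdpn, at 342 ± 19.5 CPM before and 313 ± 5.25 CPM after. Of 13 fibroblast and mural markers, 9 were tested, 6 rose and 3 fell (median 0.85), led by Notch3 (2.79), Dcn (-1.91) and Pdgfra (-1.47). Of the 6 rises, 2 (Fap and Myh11) were in genes that passed the filter through the TGFβ1 libraries alone, and the other 7 genes had a median of 0.63, with 4 higher and 3 lower. The summed level of the 13 markers was 646 to 683 CPM before and 556 to 579 CPM after. Of 13 leukocyte, epithelial and mesothelial markers, 4 were tested, 1 rose and 2 fell (median -0.35). Their sum was 831 to 983 CPM before and 300 to 351 CPM after, nearly all of it from Upk3b, which fell from 537 ± 45.0 to 84.0 ± 9.67 CPM (-2.68), and Msln, which fell from 344 ± 28.3 to 203 ± 9.90 CPM (-0.76). Csf1r, a leukocyte receptor, rose from 0.278 ± 0.124 to 1.38 ± 0.348 CPM (2.28). It passed the filter through the treated libraries alone, so the filter fixed the direction of the single rise of its list. The part of these marker changes in the changes of the 10 transcription factors was not tested.

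**Figure D5:**
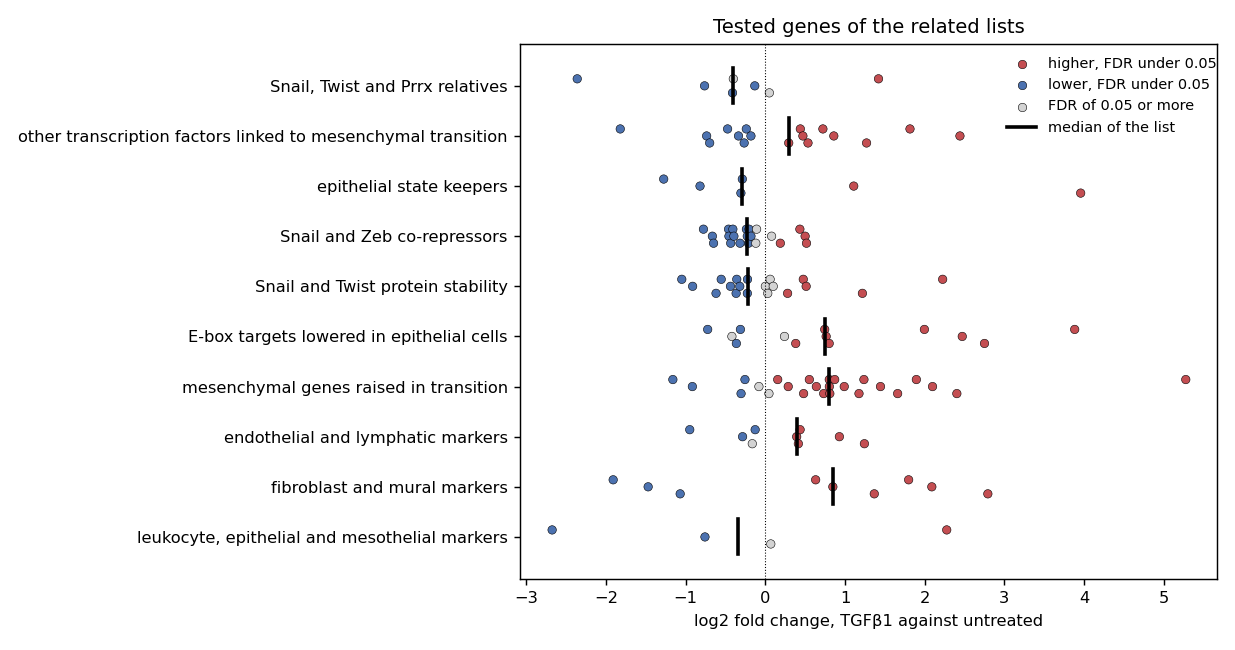
Log2 fold change, TGFβ1 against untreated, of the tested genes of each list, 1 point per gene, red for higher and blue for lower at an FDR under 0.05 and grey otherwise, with the median of each list as a black bar, genes that passed the filter through 1 group alone included. The median lies at 0.80 for the mesenchymal genes, -0.23 for the co-repressors and -0.40 for the relatives of the 10 transcription factors.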

How the data were processed

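Poly(A) RNA of SV-LECs was sequenced from stranded libraries as single 75-base reads. The deposited table holds whole-number counts per gene, not normalized, for all 8 libraries. The submitters' processing notes name bcl2fastq 2.20.0.422, STAR 2.7.3a, featureCounts 1.5.1 and GRCm38. The annotation release and the strand setting of counting were not given in the sources used here. Samples were grouped by the treatment in the labels. Genes were filtered with filterByExpr, scaled by TMM and compared with the edgeR 4.0.16 likelihood ratio test (limma 3.58.1, R 4.3.3), the test of the study's methods, with Benjamini-Hochberg adjustment over 13818 genes and a threshold of 0.05. Members called by edgeR's quasi-likelihood test also numbered 9. Read ratios (0.5 added to each count) were compared by exact permutation. Gene positions, exon lengths and overlaps came from GENCODE M21 on GRCm38, which held 55144 of the 55471 gene identifiers.

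The 10 members and the lists were chosen with earlier results of these data known. The genes named were the members, the relatives that passed the filter, the genes overlapping a member and, per list, the 3 with the largest likelihood ratio, except 1 mesenchymal gene that is not reported here. Other genes named (cell type markers, the 4 mesenchymal genes that fell and genes that passed the filter through 1 group alone) were singled out after their values were seen. Counts were simulated for this comparison (13656 genes), with only a small share of genes changed. In the data 75.6% of genes tested were called, so the simulated shares of false calls do not carry over to the results. The likelihood ratio test called 96% of genes changed by a log2 fold change of 1 and 100% of those changed by 2. Of its calls, 10.1% were false, against 5.83% for the quasi-likelihood test and 7.35% for DESeq2 1.42.0. Alternatives were these tests, DESeq2 size factors, total counts, other filters and prior counts, a replicate block and leaving out each library. No pair of libraries within a group agreed within sampling noise (chi-square per degree of freedom 2.37 to 7.84). The limit of 3 counts covers counting error only.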

Additional observations from a re-analysis of the deposited data

Results flagged for a closer look

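In each case below, 1 of the 4 libraries of a group stood apart from the other 3 by Dixon's test at the 95% level, which flags about 1 in 20 groups by chance. Of 98 groups tested, 8 stood apart. Among the transcription factors, Snai2 measured 11.2 CPM in TGFβ1 replicate 2 against 12.2 to 12.4 in the other treated libraries, and the Twist1 to Twist2 read ratio was 9.71 in TGFβ1 replicate 4 against 12.6 to 13.1. The other cases were in genes of the lists. Tcf21 measured 1.43 CPM in untreated replicate 2 (others 1.14 to 1.17) and Notch3 45.7 CPM in untreated replicate 1 (others 39.3 to 40.4). After TGFβ1, Suz12 measured 166 CPM (others 156 to 157) and Jup 146 CPM (others 129 to 132) in replicate 4, and Suv39h1 49.3 CPM (others 54.5 to 54.8) and Mmp14 1590 CPM (others 1660 to 1670) in replicate 3. For the 7 genes the gap was smaller than the difference between the groups.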

How the results depend on the processing

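Over 17 settings of the fit, Snai1, Snai2, Snai3, Twist1, Twist2, Zeb1, Prrx1 and Tcf4 kept their direction and were called each time, and no result reversed. Zeb2 passed the threshold with total counts (log2 fold change -0.148) and without TGFβ1 replicate 1, and over the fits without 1 library its log2 fold change ranged from -0.122 to -0.053. Prrx2 was lost with DESeq2 (-0.238), under the replicate block (-0.241) and without untreated replicate 1 or 3 or TGFβ1 replicate 1 or 4, and ranged from -0.300 to -0.188 over the fits without 1 library. Same-numbered libraries did not deviate together (correlations -0.103, -0.0594, -0.0336 and -0.193), so the replicate block rests on a number only. For the read ratios, the replicate block by sign flips gave log2 differences of 2.003 (Snai1 to Snai2), 0.309 (Zeb1 to Zeb2), -0.425 (Prrx1 to Prrx2), 1.441 (Snai3 to Snai1) and 3.444 (Snai3 to Snai2), and an exact sign-flip test of 4 pairs cannot reach the threshold. Without 1 library the ranges were 1.909 to 2.136, 0.276 to 0.350, -0.500 to -0.360, 1.351 to 1.530 and 3.365 to 3.507, where 3 against 4 libraries cannot give an exact p below 0.0571. Total counts moved the median of all genes to -0.074, and no filter to 0.074. Of the counts per list recomputed under the alternatives, 443 stayed within 1.5 times and 12 did not, all of these without the filter, in the leukocyte list, where 1 gene was called higher, or among the E-box targets, where the 8 rises became 5 without genes under the filter in 1 group (an alternative added after the data were seen). Of 20 levels per kilobase, 12 moved with the transcript length. Depth limits Snai3 most, with 10 counts in the lowest library.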
